A study of Homo sapiens with 30 samples.

Results

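The 9 genes described here encode enzymes and core subunits that place or remove chemical marks on lysine 27 of histone H3. They were EZH2, SUZ12 and EED, KDM6B, EP300 and CREBBP, and HDAC1, HDAC2 and HDAC3. They are picked by name and position, by a rule that uses no measured value, and each was followed through the peaks that overlapped a window reaching 2 kb to either side of its hg19 start. All 9 genes had their window read in each of the 30 CUT&Tag libraries of the series, which were made from K562, an established human chronic myeloid leukaemia line, with 500000 cells per library. In CUT&Tag an antibody directs a transposase to cut and tag the DNA beside a mark, so that reads pile up where the mark is. The libraries treated with trichostatin A (TSA, a histone deacetylase inhibitor) were 4 in number, all for acetylation of lysine 27 (H3K27ac), extracted with SDS and amplified for 15 PCR cycles. They used ab177178 at 1/100, ab4729 at 1/100, and Diagenode C15410196 at 1/50 and at 1/100. The 5 untreated H3K27ac libraries at 15 cycles used the same antibodies and dilutions, and Active Motif 39133 at 1/100. A further 16 untreated H3K27ac libraries crossed the 4 antibodies, Diagenode at 1/50 and the others at 1/100, with column or SDS extraction and with 11 or 13 cycles. Their peaks were called after the reads had been downsampled. The last 5 libraries used CST9733 at 1/100 against trimethylation of the same lysine (H3K27me3), without TSA, with column or SDS extraction at 11 and 13 cycles and SDS at 15 cycles. Their peaks at 11 and 13 cycles also came from downsampled reads, whereas no library at 15 cycles is described as downsampled. Each condition had 1 library, so no value below has a replicate error, and neither the dose nor the duration of TSA is known here.

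The same lysine can carry an acetyl group or up to a trimethyl group, but not both at a time. EZH2 is the methyltransferase of Polycomb repressive complex PRC2, SUZ12 is the subunit that holds the complex together, and EED binds trimethylated lysine 27 and stimulates the enzyme. KDM6B, also called JMJD3, is a demethylase that removes the trimethyl mark. EP300 and CREBBP are the closely related acetyltransferases that place H3K27ac at enhancers and promoters. HDAC1 and HDAC2 are deacetylases of the Sin3, NuRD and CoREST complexes, HDAC3 is the deacetylase of the NCoR and SMRT corepressors, and all of them are inhibited by TSA. H3K27ac marks the promoters of active genes and H3K27me3 marks genes silenced by Polycomb, so a peak at these starts reports on the genes that encode the machinery and not on the activity of its proteins.

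The promoters of 4 genes are shown because they span the range of outcomes, from an H3K27ac peak in most lists (EZH2, EED and HDAC2) to none (CREBBP). They were taken from RefSeq on GRCh38.p14, 250 bases before to 50 bases after the listed start, and are written 5′ to 3′ along the gene with each CpG in capitals. For EZH2 and CREBBP, which have more than 1 listed start, the first is shown.
EZH2 promoter, chr7:148884242-148884541, minus strand: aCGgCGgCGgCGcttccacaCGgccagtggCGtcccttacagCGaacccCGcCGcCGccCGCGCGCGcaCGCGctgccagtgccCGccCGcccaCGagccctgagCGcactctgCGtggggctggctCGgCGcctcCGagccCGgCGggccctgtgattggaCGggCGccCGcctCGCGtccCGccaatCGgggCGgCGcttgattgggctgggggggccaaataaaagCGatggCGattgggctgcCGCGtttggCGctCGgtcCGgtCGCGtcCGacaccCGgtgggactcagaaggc
EED promoter, chr11:86244503-86244802, plus strand: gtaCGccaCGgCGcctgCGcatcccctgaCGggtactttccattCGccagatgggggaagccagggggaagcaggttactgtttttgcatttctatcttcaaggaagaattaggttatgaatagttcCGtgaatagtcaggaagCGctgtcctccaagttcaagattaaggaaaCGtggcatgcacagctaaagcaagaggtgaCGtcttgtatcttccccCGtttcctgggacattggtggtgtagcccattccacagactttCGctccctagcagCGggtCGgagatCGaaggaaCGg
CREBBP promoter, chr16:3880664-3880963, minus strand: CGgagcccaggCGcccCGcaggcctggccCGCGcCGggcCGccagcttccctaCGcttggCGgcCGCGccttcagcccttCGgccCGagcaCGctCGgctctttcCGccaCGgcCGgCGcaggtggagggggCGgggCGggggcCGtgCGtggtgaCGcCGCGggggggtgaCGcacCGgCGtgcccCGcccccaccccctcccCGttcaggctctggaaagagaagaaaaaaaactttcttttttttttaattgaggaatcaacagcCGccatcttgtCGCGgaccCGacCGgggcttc
HDAC2 promoter, chr6:113971099-113971398, minus strand: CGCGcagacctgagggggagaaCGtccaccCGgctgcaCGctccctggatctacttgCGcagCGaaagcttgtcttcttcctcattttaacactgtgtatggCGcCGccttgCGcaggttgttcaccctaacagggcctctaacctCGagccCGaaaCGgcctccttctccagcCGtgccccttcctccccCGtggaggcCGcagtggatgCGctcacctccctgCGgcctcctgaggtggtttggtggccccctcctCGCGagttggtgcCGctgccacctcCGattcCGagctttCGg
The median over the 35116 promoters in that table was 14 CpGs in 300 bases. EED, with 16, was close to that median and had more than 52.5% of promoters, whereas EZH2, with 46, had more than 97.1%. HDAC2 had 24 CpGs, more than 66.1% of promoters, and CREBBP had 36, more than 87.3%. The promoters not printed held 40 CpGs for SUZ12, 40 for EP300, 28 for HDAC1, 31 for HDAC3, and 24 and 2 for the KDM6B starts, which lie 5700 bp apart. Thus the promoter with no acetylation peak was richer in CpG than the promoter of EED, which had a peak in most lists.

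Peaks are the authors' SEACR calls unless MACS2 is named, and a gene's rank percentile is the place of its strongest overlapping peak, by total signal, among all peaks of the same list (100 is the strongest, and 0 stands for no peak). The H3K27ac lists held 3024 to 22808 peaks and the H3K27me3 lists 65283 to 106997. The read depth per library is unknown, so a missing peak means that none was called at that depth, not that the mark is absent. As background, the genome was divided into 758582 windows of the same length. These cover gene-poor sequence as well as promoters, so the background is lower than it would be over gene starts alone. In total 106 of the 225 gene and list pairs held an H3K27ac peak, against 1.27% of windows over the same 25 lists.

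**Figure D1:**
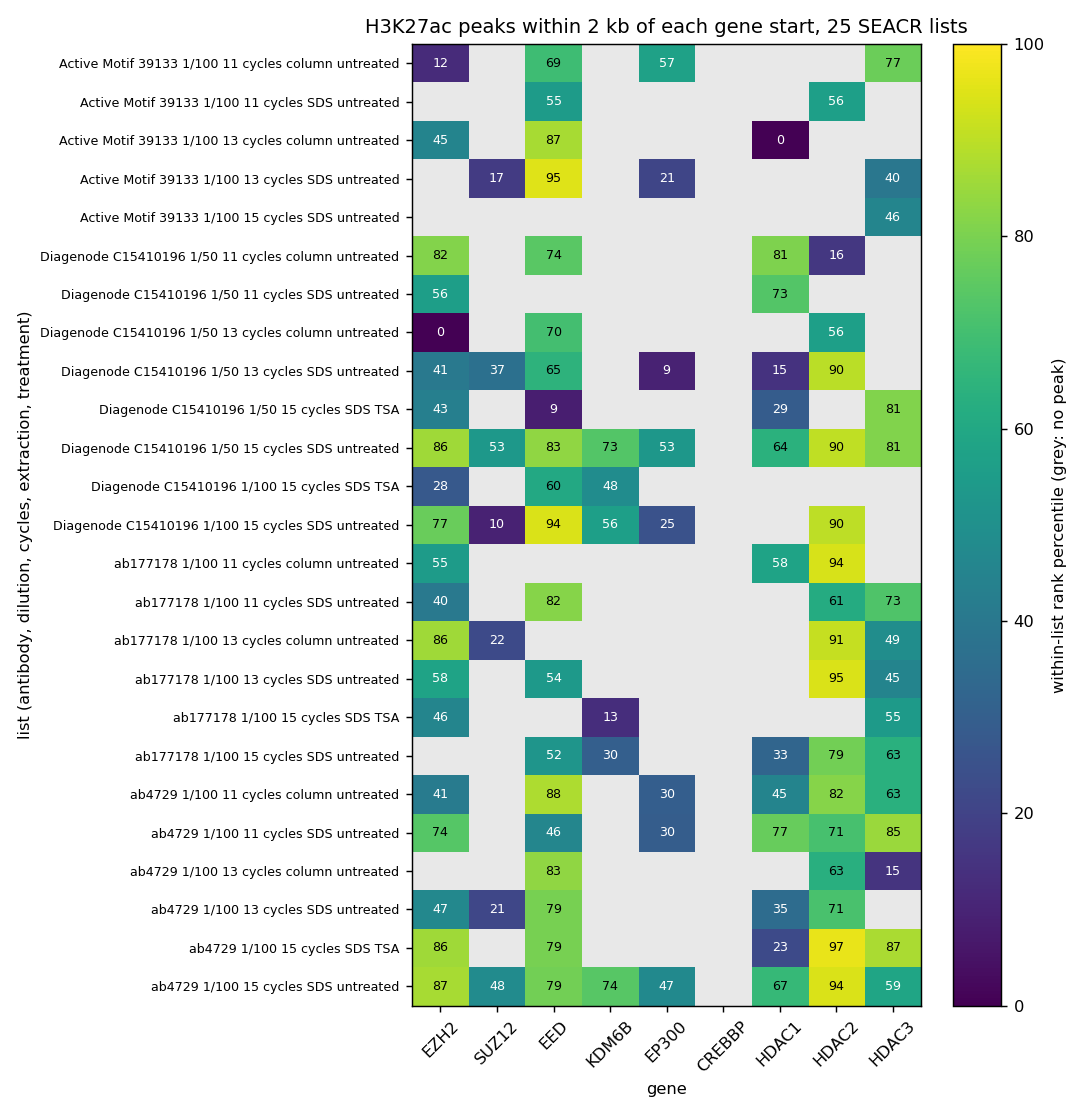
Rank percentile of the strongest H3K27ac SEACR peak within 2 kb of each gene start (columns) in each of the 25 lists (rows, named by antibody, dilution, cycles, extraction and treatment), with grey for no peak. EED and HDAC2 are filled in most rows with high values, SUZ12, EP300 and KDM6B are filled in few, and CREBBP is grey throughout.

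Among the genes of PRC2, EZH2 and EED held an H3K27ac peak in 20 of 25 lists each, and SUZ12 in 7. Of the 47515 windows with a peak in at least 1 of the 25 lists, 4.80% had one in 20 or more and 25.9% had one in 7 or more. Over the lists with a peak, the rank percentile of EED was 8.5 at the lowest, 76.5 at the median and 95.05 at the highest. For EZH2 these values were 0.2, 50.8 and 86.8, and for SUZ12 they were 9.8, 22.4 and 53.2. EED was in the upper part of its lists in 18 of its 20 lists (rank percentile above the middle of the list), EZH2 in 10 of 20 and SUZ12 in 1 of 7. Among the subunits SUZ12 was lowest in both number of lists and median rank, the ranges of the 3 genes overlapped, and the difference between genes was not tested.

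The EED peak covered the start in all 20 of its lists, and its point of highest signal lay upstream in 16 of them, at a median of -87 bp along the direction of transcription and between -299 and 394 bp. With ab4729 at 15 cycles it ran over chr11:85955435-85956276 with TSA and over chr11:85954221-85957295 without it. EZH2 behaved otherwise, with the highest point upstream in 11 lists and downstream in 9, from -1218 to 906 bp. RefSeq lists 2 EZH2 starts 806 bp apart, and the deposited peaks do not say which is used. EZH2 peaks were 519 to 4601 bp wide with a median of 958.5 bp, EED peaks 545 to 3075 bp with a median of 1096 bp, and SUZ12 peaks 430 to 2661 bp with a median of 883 bp. The widest EZH2 peak was that of untreated ab4729 at 15 cycles, 4601 bp over chr7:148578803-148583403.

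KDM6B, the demethylase gene, held a peak in 6 lists, all at 15 cycles, and in none of the 16 downsampled lists. In the background, 29.3% of windows with any H3K27ac peak had one in 6 or more lists. In those 6 lists the rank percentile was 13.0 at the lowest, 52.5 at the median and 74.1 at the highest, and the width was 687 to 4282 bp with a median of 1604.5 bp. No H3K27ac peak covered the KDM6B start given. Which of the 2 listed KDM6B starts, 5700 bp apart and with 24 and 2 CpGs, is the start given was not settled. The counts therefore describe 1 start, and the other listed start was not read. Within 10 kb, 11 lists held a peak, and 9 of these lists had one downstream whose near edge lay between 1076 and 3701 bp from the start. A total of 7 lists had one upstream, which came as near as 474 bp. With untreated ab4729 at 15 cycles the upstream peak ran over chr17:7736590-7741738 and the downstream peak over chr17:7744311-7748592, leaving the start itself between them. The upstream peak, 5149 bp wide and 1497 bp from the start, was wider than the downstream peak, 4282 bp, which ranked higher and stood for the gene. KDM6B is thus the gene for which the choice of window matters: 5 kb in place of 2 kb took its count to 11 of 25, and the lists just outside had their nearest peak 2312 to 3701 bp away. It was the only gene of the 9 with peaks between 2 and 5 kb away and none nearer in any list.

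**Figure D2:**
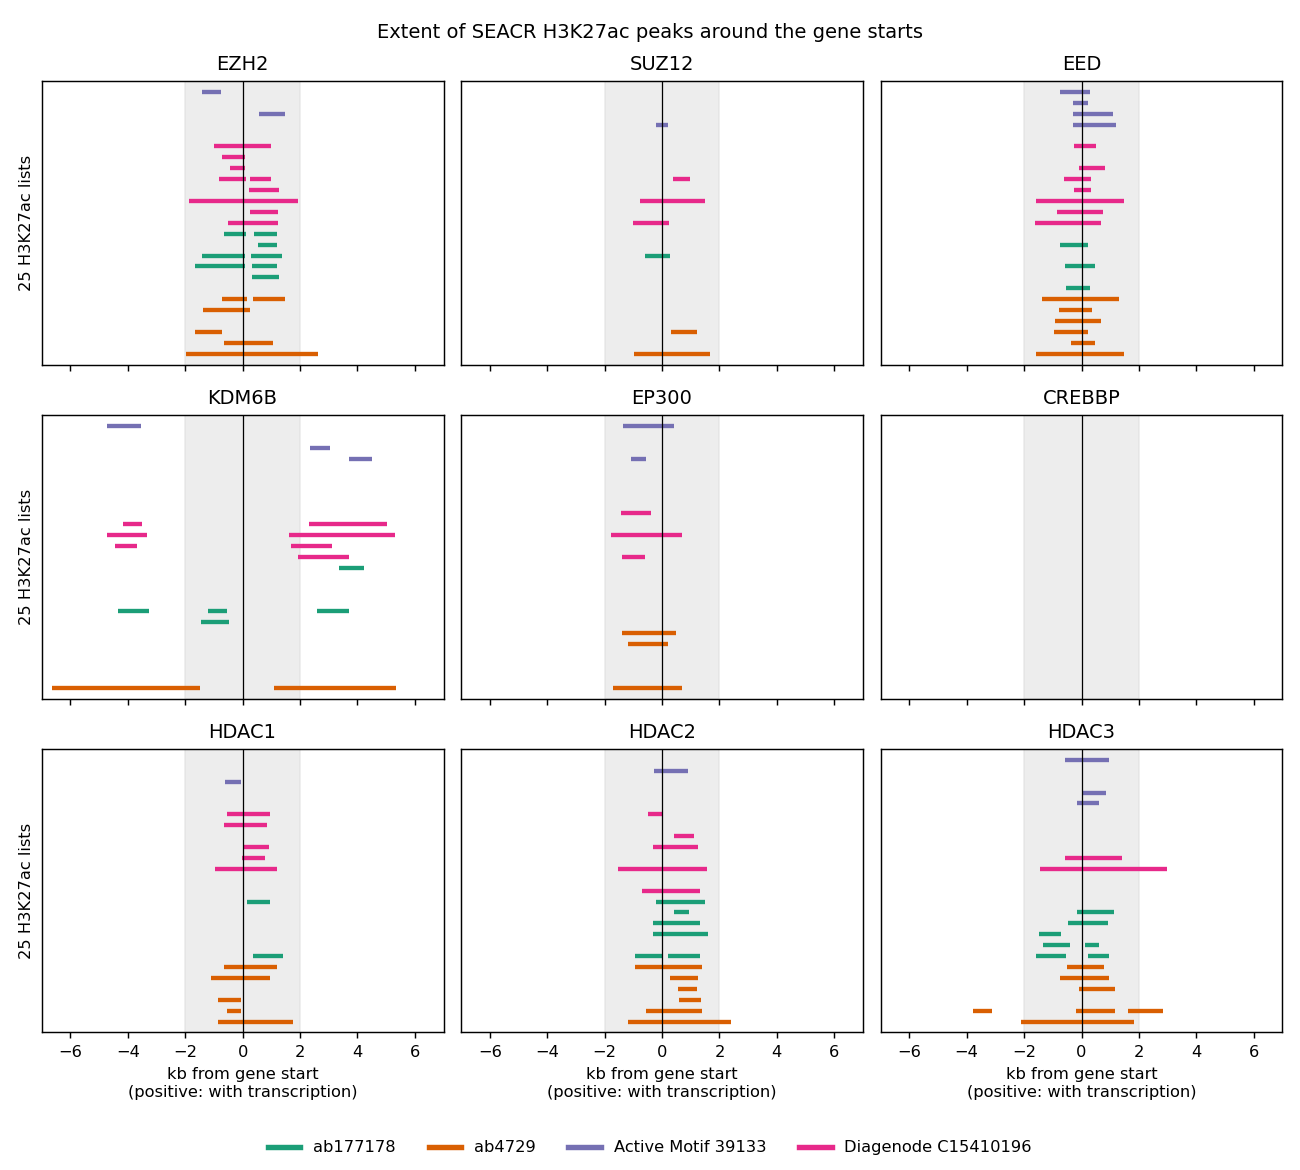
Extent of each H3K27ac SEACR peak around the 9 gene starts, in kb along the direction of transcription (x axis) for the 25 lists (rows, in the same order as in the plot of ranks), coloured by antibody, with the 2 kb window in grey. EED peaks straddle the start in all 20 lists, EP300 peaks lie mainly upstream, and CREBBP has none. KDM6B peaks lie on either side of the start given, which none covers.

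The acetyltransferase genes had few H3K27ac peaks called at their own starts. EP300 held a peak in 8 of 25 lists, against 23.0% of windows with any peak that had one in 8 or more, and CREBBP in none. For EP300 the rank percentile was 9.4 at the lowest, 29.7 at the median and 57.2 at the highest over its 8 lists, and 2 of them placed it above the middle. Its highest point lay upstream in all 8 lists, at a median of -841.5 bp, and 5 of the 8 peaks covered the start. EP300 peaks were 525 to 2490 bp wide with a median of 1593 bp. The nearest H3K27ac peak to the CREBBP start was 30.6 kb away in the closest list and 733.8 kb in the farthest, with a median of 422.1 kb, although the promoter printed above is rich in CpG. By MACS2 the nearest was 65.7 to 464.3 kb away over 5 libraries. The close relatives EP300 and CREBBP therefore differed in whether an H3K27ac peak was called, in the lists that had an EP300 peak. With every list cut to 3024 peaks, neither gene had a call.

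Of the deacetylase genes, HDAC2 held a peak in 17 lists, HDAC3 in 15 and HDAC1 in 13. The background shares of windows that reached those counts were 7.93%, 10.4% and 13.1%. HDAC2 had the highest median rank percentile of the 9 genes over lists with a peak, 82.0, with 16.4 at the lowest and 96.8 at the highest, and stood above the middle in 16 of its 17 lists. HDAC3 had 15.2, 63.4 and 87.3 as lowest, median and highest, and HDAC1 had 0.3, 45.1 and 80.8. The order of the medians among the deacetylases was HDAC2, HDAC3, HDAC1, with ranges that overlapped. The HDAC2 peak had its highest point downstream of the start in 16 of 17 lists, at a median of 847 bp with quartiles of 798 and 869 bp, a narrower spread than for any other gene with a peak. HDAC3 had it downstream in 13 of 15 lists, at a median of 343 bp, and HDAC1 had 5 upstream and 8 downstream with a median of 73 bp. RefSeq lists a start on the other strand within 2 kb of HDAC2 (HDAC2-AS2) and of HDAC3 (RELL2), so acetylation of the gene and of its neighbour cannot be told apart there. Median widths were 1573 bp for HDAC2, 1303 bp for HDAC3 and 1023 bp for HDAC1.

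Genes were compared by matching lists, those in which both or neither had a peak. SUZ12 and EP300 matched in 20 of 25 lists, with a peak for both in 5, and EED and HDAC2 matched in 18, with a peak for both in 15. EZH2 and EED matched in 17 lists, with a peak for both in 16. KDM6B and CREBBP matched in 19 lists, with a peak for both in 0, so a match can be mostly shared absence. Genes with a peak in most lists, or in few, match often by their counts alone. No expected number was computed, so the matches do not show that genes go together. These counts share libraries and list sizes and are given as a description.

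H3K27me3, the mark that EZH2 writes and KDM6B removes, was not called within 2 kb of any of the 9 starts given. None of the 45 gene and list pairs held a peak, against 8.28% of windows over the same 5 lists, and the MACS2 list of the library at 15 cycles held none of 9 against 12.9% of windows. The nearest H3K27me3 peak to the KDM6B start given was 4591 bp away with column extraction at 11 cycles and 5716 bp away at 15 cycles, in both upstream of the start. In the other 3 lists it was 18.2 to 21.0 kb away. RefSeq lists 2 KDM6B starts 5700 bp apart, and which of them is the start given was not settled. The upstream distance at 15 cycles is close to that spacing, and no window was read at the other listed start. By MACS2 the nearest H3K27me3 peak of that library lay 5804 bp upstream, at a rank percentile of 91.63. The SEACR peak was at 20.27. The untreated ab4729 H3K27ac peak over chr17:7736590-7741738 covered both of these peaks. If the start given is the downstream one, both marks were thus called near the other listed start. No H3K27me3 peak was called within 10 kb downstream of the start given. CREBBP, which had no H3K27ac peak, had its nearest H3K27me3 peak 8.6 to 27.5 kb away, and EP300 13.4 to 18.0 kb away. For EZH2 the distance was 21.8 to 24.3 kb, and for HDAC2 40.2 to 45.9 kb. The distances were 34.7 to 148.8 kb for SUZ12, 61.0 to 217.7 kb for EED, 34.3 to 133.6 kb for HDAC1 and 33.9 to 60.6 kb for HDAC3. CREBBP was thus without a call for either mark within 2 kb in all 30 SEACR lists.

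How far the result depends on the antibody was asked first in the untreated lists at 15 cycles. ab4729 found 8 of the 9 genes against 3.10% of windows, and Diagenode at 1/50 found 8 against 2.50%. Diagenode at 1/100 found 6 against 1.34%, ab177178 found 5 against 2.73%, and Active Motif found 1, HDAC3, against 0.471%. HDAC2 had rank percentiles of 78.6 with ab177178, 94.2 with ab4729, 90.4 with Diagenode at 1/50 and 90.1 with Diagenode at 1/100, and no peak with Active Motif. EED had 52.2, 78.7, 83.3 and 94.3 in the same 4 lists and again no peak with Active Motif. EZH2 had no peak with ab177178 or Active Motif, but 86.8 with ab4729, 85.8 with Diagenode at 1/50 and 77.3 at 1/100. The 2 Diagenode dilutions agreed on 7 of the 9 genes and differed at HDAC1 and HDAC3, found at 1/50 with rank percentiles of 63.9 and 81.2 and not at 1/100.

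In the 16 downsampled lists each antibody had 4, and the background over the 4 lists was 1.37% for ab177178, 0.973% for ab4729, 0.786% for Active Motif and 0.807% for Diagenode. Of 36 gene and list pairs, ab4729 held a peak in 20, ab177178 and Diagenode in 15 each, and Active Motif in 13. HDAC2 was found in all 4 lists of ab177178, at rank percentiles of 91.3 and 94.1 on columns and 94.5 and 61.4 with SDS, at 13 and 11 cycles in that order. It was also in all 4 lists of ab4729, at 63.0 and 82.0 on columns and 71.4 and 70.8 with SDS. With Diagenode it was at 56.4 and 16.4 on columns and at 89.7 and no peak with SDS, and with Active Motif it appeared only with SDS at 11 cycles, at 56.4. Taking 0 for no peak, HDAC2 averaged 85.3 ± 15.99 with ab177178, 71.8 ± 7.79 with ab4729, 14.1 ± 28.2 with Active Motif and 40.6 ± 40.4 with Diagenode (SD over 4 protocols, not replicates). limma's moderated F test on rank percentiles across 11211 windows called 260 of them (2.32%) for antibody after Benjamini-Hochberg adjustment, and none of the 7 genes tested was among them. Leaving out any of the 4 protocols lowered the count of windows to between 3 and 15. HDAC2 came nearest, with an adjusted p of 0.116 by limma, and an adjusted p of 0.0144 when peaks were ranked by maximum signal. Over all alternatives the limma adjusted p-values of the genes for antibody ranged from 0.0144 to 1.

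The PRC2 genes showed other patterns by antibody. EED was in all 4 downsampled lists of ab4729, at 74.1 ± 19.0, and of Active Motif, at 76.5 ± 17.9, in 3 of Diagenode, at 52.3 ± 35.1, and in 2 of ab177178, at 33.9 ± 40.8. EZH2 was in all 4 of ab177178, at 59.8 ± 18.9, and of Diagenode, at 44.6 ± 34.1, in 3 of ab4729 and in 2 of Active Motif, at 14.4 ± 21.4. HDAC3 was in 3 lists of ab177178 and of ab4729, in 2 of Active Motif and in none of Diagenode, although it had a peak with Diagenode at 15 cycles. The limma adjusted p for antibody was 0.478 for EZH2, 0.481 for EED and 0.517 for HDAC3, and 0.312 for HDAC1. KDM6B and CREBBP had no peak in these 16 lists and were not tested.

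**Figure D3:**
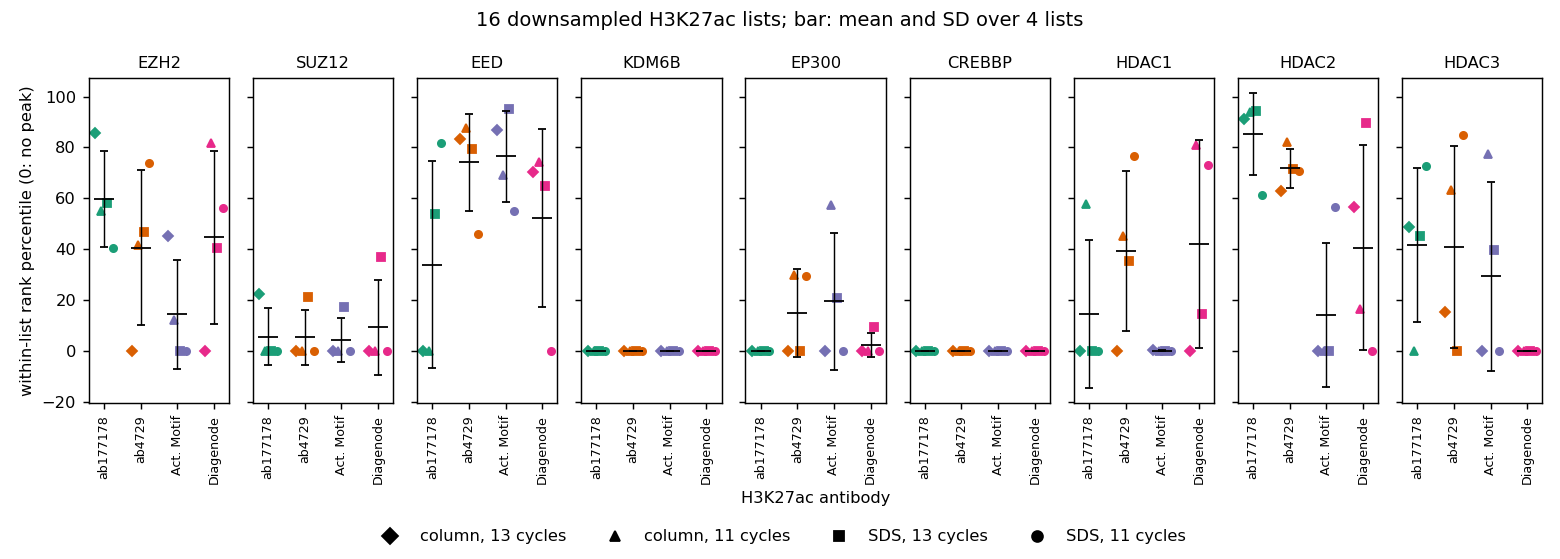
Rank percentile of each gene (y axis, 0 for no peak) in the 16 downsampled H3K27ac lists, by antibody, with marker shapes for extraction and cycle number and a bar for the mean and SD over 4 lists. For HDAC2 all lists of ab177178 and ab4729 lie between 61.4 and 94.5, whereas 3 of 4 Active Motif lists are at 0.

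The extraction arms held similar numbers of peaks at these genes. Of 72 gene and list pairs in each arm, 30 held a peak with columns, against 0.974% of windows, and 33 with SDS, against 0.996%. EED averaged 58.9 ± 37.0 with columns and 59.5 ± 29.2 with SDS, HDAC2 50.4 ± 39.7 with columns and 55.5 ± 36.6 with SDS, and EZH2 40.2 ± 33.8 with columns and 39.5 ± 26.7 with SDS (rank percentile, SD over 8 lists each). The differences, column minus SDS, lay between -6.65 (SE 7.74) for SUZ12 and 3.41 (SE 9.19) for EP300 among the 7 genes tested. They were 0.67 for EZH2, -0.58 for EED, -1.98 for HDAC1, -5.13 for HDAC2 and -4.69 for HDAC3 (rank points), and the sign of each of the 7 apart from SUZ12 turned under at least 1 other setting. limma called 0% of the 11211 windows, with 411 at an unadjusted p under 0.05, and the adjusted p of each of the 7 genes was 0.999. With SEs of 7.74 to 14.6 rank points, differences of that size would not have been seen.

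Cycle number was compared in the same lists. Of 72 pairs each, 32 held a peak at 13 cycles, against 0.926% of windows, and 31 at 11 cycles, against 1.04%. HDAC1 was found in 3 of 8 lists at 13 cycles, at rank percentiles of 0.32 (Active Motif, column), 14.6 (Diagenode, SDS) and 35.4 (ab4729, SDS), and in 5 of 8 lists at 11 cycles. Those 5 were 80.8 and 73.2 with Diagenode on column and SDS, 58.0 with ab177178 on a column, and 45.1 and 76.8 with ab4729 on column and SDS. All HDAC1 peaks at 13 cycles thus ranked below all those at 11 cycles, while lists without a peak occurred in both. The mean was 6.30 ± 12.8 at 13 cycles and 41.7 ± 36.3 at 11 cycles, a difference of -35.4 (SE 11.5), with an adjusted p of 0.383 by limma. When peaks were ranked by maximum signal, the HDAC1 difference was -9.20 (SE 11.9), with an adjusted p of 0.853 by limma. Over all windows limma called 10 of 11211 (0.0892%), 2 higher and 8 lower at 13 cycles, and none of the 7 genes. The count of windows was 1 without ab4729 or without Diagenode, 4 without Active Motif and 6 without ab177178. SUZ12 had a peak in 4 of 8 lists at 13 cycles, 1 for each antibody, at 17.3 to 37.0, and in none of 8 at 11 cycles (difference 12.3, SE 7.74, adjusted p of 0.666 by limma), and ranked by maximum signal its difference was 28.5 (SE 12.2, adjusted p of 0.465 by limma). The other differences, 13 minus 11 cycles, were -10.5 for EZH2, 14.96 for EED, -10.8 for EP300, 10.65 for HDAC2 and -18.7 for HDAC3, with limma adjusted p-values from 0.74 to 0.861. KDM6B and CREBBP had no peak at either cycle number. The interaction of extraction with cycle number called 0% of windows, with 937 at an unadjusted p under 0.05, and none of the genes.

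TSA treatment was examined in 4 pairs of libraries that shared antibody, dilution, extraction and cycle number. Across the 9 genes, 15 of 36 pairs of gene and library held a peak with TSA and 27 of 36 without it. The 14 present in both were narrower with TSA in 13 cases. The exception was HDAC3 with ab177178, 929 bp with TSA and 736 bp without it. The EZH2 peak with ab4729 was 1718 bp wide with TSA and 4601 bp without it, and the EED peak 842 bp with TSA and 3075 bp without it. The peaks of the whole list were also narrower with TSA in all 4 pairs, by median width. With ab4729 the medians were 922 bp with TSA and 2736.5 bp without it, and with ab177178 753 and 1393 bp. With Diagenode they were 1075 and 2256 bp at 1/50, and 1145 and 1339.5 bp at 1/100. The narrower peaks are thus not particular to these genes.

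The loss of calls was uneven among the genes. HDAC2 had a peak in 1 of 4 lists with TSA, ab4729 at 96.8, and in all 4 untreated lists, at 78.6, 94.2, 90.4 and 90.1 (ab177178, ab4729, Diagenode 1/50 and Diagenode 1/100). SUZ12 had none of 4 with TSA and 48.2, 53.2 and 9.75 in 3 of 4 untreated lists, and EP300 had none of 4 with TSA and 47.3, 52.9 and 25.0 in 3 of 4 untreated lists (ab4729, Diagenode 1/50 and Diagenode 1/100). In the background, 13.9% of windows with a peak in at least 3 of the 4 untreated lists had none with TSA. KDM6B had 2 of 4 with TSA, at 13.0 with ab177178 and 48.5 with Diagenode at 1/100, and all 4 without it, at 30.4, 74.1, 73.4 and 56.5 in the order given for HDAC2. Its downstream peak with Diagenode at 1/50 lay 2312 bp from the start with TSA and 1625 bp without it, so the peak with TSA fell outside the window, at a rank percentile of 86.5. The ab177178 list with TSA also had KDM6B peaks outside the window, 2607 and 3272 bp from the start. Both ranked above the 30.4 of its untreated list. In the ab4729 and Diagenode 1/100 pairs, no KDM6B peak with TSA within 10 kb ranked above the untreated one.

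EZH2 and HDAC3 kept their calls in the full lists. EZH2 had a peak in all 4 lists with TSA, at 45.7 with ab177178, 85.7 with ab4729, 43.2 with Diagenode at 1/50 and 28.1 at 1/100, and in 3 of 4 untreated lists, at 86.8, 85.8 and 77.3 with none for ab177178. The EZH2 peak covered the start in 1 of these TSA lists and in 3 untreated lists. With every list cut to 3024 peaks, EZH2 had a call in those 3 untreated lists and in no TSA list. HDAC3 had 54.7, 87.3 and 81.1 with TSA in the lists of ab177178, ab4729 and Diagenode at 1/50, and 63.4, 58.7 and 81.2 in the same lists without it. EED had 79.4, 8.52 and 60.5 with TSA for ab4729, Diagenode at 1/50 and Diagenode at 1/100, with none for ab177178, and 78.7, 83.3, 94.3 and 52.2 without it. HDAC1 had 22.6 and 29.1 with TSA for ab4729 and Diagenode at 1/50, and 67.1 and 63.9 for these without it, with 32.6 for ab177178. CREBBP had no peak with TSA or without it. HDAC1 and HDAC2 thus had fewer calls with TSA, and so did SUZ12, EP300, KDM6B and EED. In the full lists HDAC3 had the same number and EZH2 had more. Whether the deacetylase genes differ from the others in this was not tested.

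**Figure D4:**
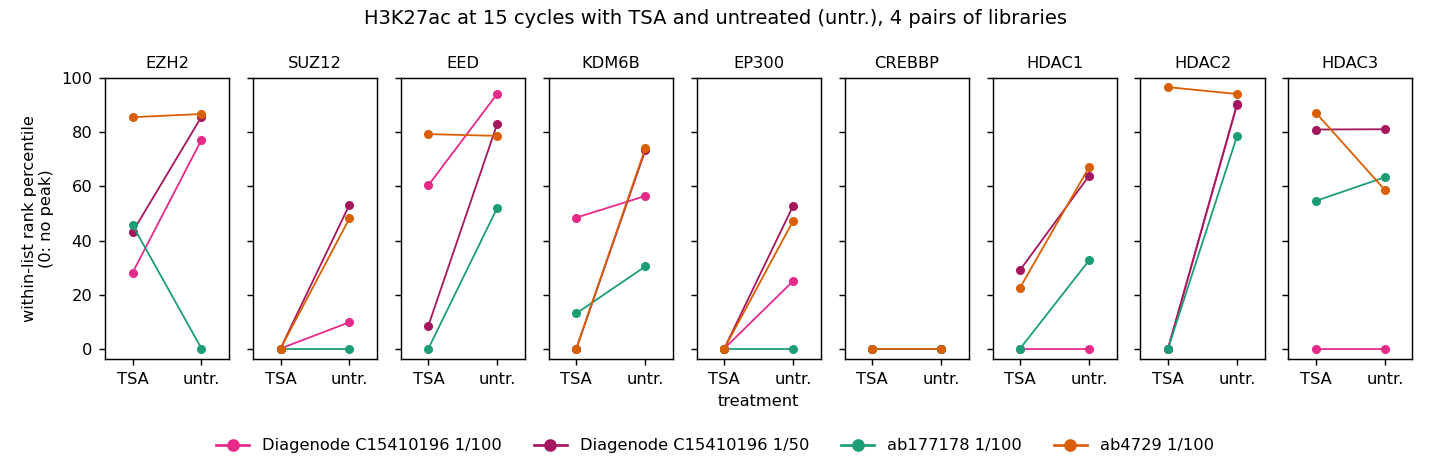
Rank percentile of each gene (y axis, 0 for no peak) with TSA and untreated at 15 cycles, with a line for each of the 4 pairs of libraries of the same antibody and dilution. HDAC2 is at 0 in 3 of 4 lists with TSA and at 78.6 to 94.2 in all untreated lists, SUZ12 and EP300 are at 0 in every TSA list, and EZH2 has a peak in every TSA list.

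limma, with the pair as a block, called 0% of 24434 windows for TSA, with 2634 at an unadjusted p under 0.05, and none of the 8 genes tested. The difference for HDAC2 was -64.1 rank points (SE 18.8), with an adjusted p of 0.438 by limma, lower with TSA in 3 of 4 pairs. For KDM6B it was -43.2 (SE 15.9), lower in 4 of 4 pairs, and for EED -40.05 (SE 14.8), lower in 3 of 4, each with an adjusted p of 0.444 by limma. For EP300 it was -31.3 (SE 12.7) and for SUZ12 -27.8 (SE 13.4), with adjusted p-values of 0.465 and 0.474 by limma, and for HDAC1 -28.0 (SE 11.5), with 0.468. EZH2 and HDAC3 had differences of -11.8 (SE 18.5) and 4.93 (SE 10.8), and each changed sign under some settings, with EZH2 at 0.62 without the Diagenode 1/100 pair and HDAC3 at -2.95 without the ab4729 pair. With every list cut to the 4462 peaks of the shortest of the 8, the differences were -6.67 (SE 12.7) for KDM6B, -1.39 (SE 8.71) for HDAC1, -44.1 (SE 17.7) for HDAC2, -30.4 (SE 12.3) for EED, -23.6 (SE 13.0) for EZH2 and 21.6 (SE 10.4) for HDAC3. SUZ12 and EP300 then had too few peaks to be tested. In the full lists ranked by maximum signal, the HDAC1 difference was -13.8 (SE 11.3). Over all alternatives the adjusted p-values of the genes for TSA ranged from 0.189 to 1.

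The lists themselves also shrank with TSA, apart from that of ab4729, and the share of calls kept can be set against the share of windows kept. With Diagenode at 1/100, 3 of 6 genes with an untreated peak kept it (50.0%) against 41.9% of windows, in lists of 4462 peaks with TSA and 7834 without it. With Diagenode at 1/50, 4 of 8 kept it (50.0%) against 37.0%, in lists of 6301 peaks with TSA and 11844 without it. With ab177178, 2 of 5 kept it against 23.6%, in lists of 7056 peaks with TSA and 16623 without it. With ab4729, 5 of 8 kept it (62.5%) against 55.4%, in a list that was longer with TSA, 22808 peaks with TSA and 13394 without it. The windows of the TSA lists that held a peak were 0.720%, 0.979%, 0.990% and 3.23% of the genome in the same order, with 3, 4, 3 and 5 genes. The share kept lay above the background of each pair, over 5 to 8 genes, and this difference was not tested. The gene windows are centred on starts, whereas the background windows tile the genome and may hold only the edge of a peak. The 2 shares are therefore not like for like. In the ab4729 pair SUZ12, EP300 and KDM6B lost their calls although the list as a whole grew.

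The number of genes called tended to be higher in longer lists. Over the 25 H3K27ac lists, 1 to 8 of the 9 genes had a peak, with a median of 4, and the correlation with the number of peaks was 0.51 (Pearson) and 0.63 (Spearman), given as a description over lists that share antibodies. ab4729 and Diagenode at 1/50 reached 8 genes with 13394 and 11844 peaks, whereas untreated ab177178 reached 5 genes with 16623 peaks. Cutting every list to 3024 peaks left 49 of the 106 calls. Of these EED held 15, HDAC2 14, EZH2 and HDAC3 8 each, HDAC1 3 and KDM6B 1, and SUZ12 and EP300 none.

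**Figure D5:**
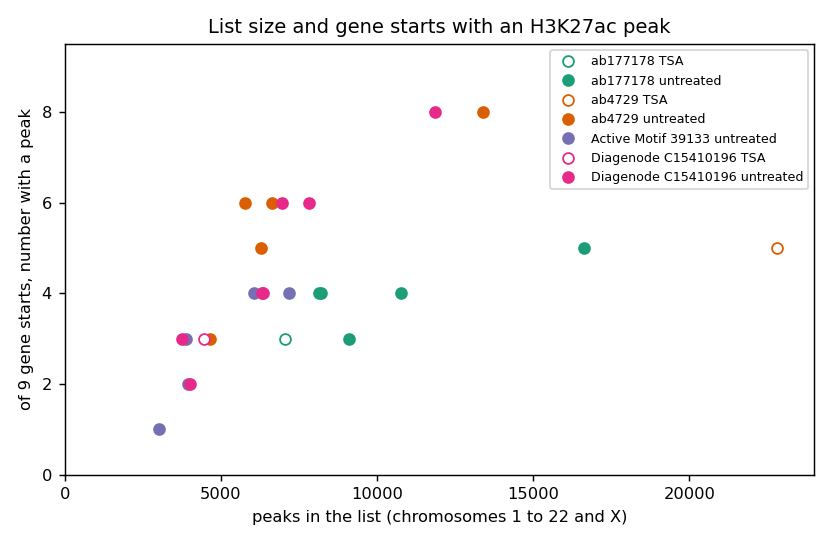
Number of the 9 gene starts with an H3K27ac peak (y axis) against the number of peaks in the list (x axis), 1 point per list, coloured by antibody, with open points for TSA. The 2 lists with 8 genes have 11844 and 13394 peaks, and the longest list, ab4729 with TSA at 22808 peaks, has 5.

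MACS2 lists of the 5 untreated H3K27ac libraries at 15 cycles gave 26 of 45 gene and library pairs with a peak, against 1.70% of windows, beside 28 by SEACR in the same libraries. The callers shared 24 pairs, SEACR alone called 4 and MACS2 alone called 2. Those of MACS2 alone were EZH2 with Active Motif and HDAC3 with Diagenode at 1/100, of rank percentile 24.1 and 15.9 by −log10 q-value. Those of SEACR alone were KDM6B in 2 libraries and SUZ12 and HDAC1 in 1 each. HDAC3 was the only gene with a MACS2 peak in all 5 libraries, at rank percentiles of 15.9 to 83.1. CREBBP had no MACS2 peak in any, and HDAC2 and EED each had 4 of 5, with median rank percentiles of 92.5 and 93.0 over those.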

How the data were processed

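Per the submitters' processing notes, which give neither roles nor order, the authors' tools included bcl2fastq, Trim Galore 0.6.6, Bowtie2 2.2.9, SAMtools 1.3.1, Picard 2.6.0, SEACR, MACS2 and bedtools 2.25.0, and the build was hg19. The deposited SEACR files hold a total and a maximum signal per peak, called in each library, and those at 11 and 13 cycles come from downsampled reads, per the labels. The deposited MACS2 files hold a score, a fold enrichment ratio, and −log10 p-values and q-values. MACS2 peaks were ranked by q-value, and the authors' scores and folds were left aside.

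Peaks of chromosomes 1 to 22 and X were kept. The strongest peak overlapping the window of 2000 bp on each side of a start stood for the gene, and its rank percentile was 100 × (rank − 0.5) / number of peaks. Total signal rises with peak width. limma 3.58.1 in R 4.3.3 fitted rank percentiles, with 0 for no peak, over windows with a peak in at least 4 of the 16 downsampled lists (antibody, extraction and cycles as terms) or at least 2 of the 8 TSA and untreated lists (pair as a block). The Benjamini-Hochberg adjustment ran over all windows, with a threshold of 0.05, and the code was tested on simulated data. P-values measure the spread among conditions, not biological replicates.

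The named genes are the 9 members, by rule. The rule takes them by function and position, but this list of genes and the tests were proposed with earlier results of these data known. Alternatives varied the window, ranking value, filter, list size, caller and the lists included. Other genes of these pathways were not analysed here, since no hg19 annotation was used. Strand and promoter sequences came from RefSeq on GRCh38.p14, matched by symbol for all 9 genes, and no coordinate was converted between builds. Other steps used Python 3.11.15, pandas 2.3.3, numpy 2.4.6, matplotlib 3.10.9 and scipy 1.17.1.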

Additional observations from a re-analysis of the deposited data

Results flagged for a closer look

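Of 40 groups of lists whose rank percentiles varied, 12 were flagged by Dixon's ratio, the gap from the end list to the next over the range. Its nominal rate of about 1 group in 20 does not hold here. A list that alone has a peak is always flagged, however low its rank, so the count of 12 is not a sign of excess. In most of these groups the distant list was the only one with a peak, since no peak counts as 0. Among downsampled Active Motif lists, these were SUZ12 at 17.3 with SDS at 13 cycles, HDAC1 at 0.3 with a column at 13 cycles and HDAC2 at 56.4 with SDS at 11 cycles. Among downsampled Diagenode lists, SUZ12 at 37.0 and EP300 at 9.4, both with SDS at 13 cycles, stood alone, and EED at 0.0 with SDS at 11 cycles was the only list without a peak. Among downsampled ab177178 lists, SUZ12 at 22.4 with a column at 13 cycles and HDAC1 at 58.0 with a column at 11 cycles stood alone, and HDAC2 at 61.4 with SDS at 11 cycles was below the other 3 lists. Among downsampled ab4729 lists, SUZ12 stood alone at 21.4 with SDS at 13 cycles. At 15 cycles HDAC2 was at 0.0 with Active Motif among the untreated lists, and at 96.8 with ab4729 among the TSA lists, where the other 3 had no peak. These lists are single libraries, and whether another library of the same condition would give the same value was not tested.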

How the results depend on the processing

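Of 435 recomputed values, 380 were labelled the same, 30 moved, 24 changed sign and 1 passed the threshold. A count was the same if it equalled the main count or lay within a fixed fold of it. A median rank was the same if it moved by no more than the SD over lists. A fit was the same if it kept its side of the threshold and, where it had a sign, its sign. The count of H3K27ac calls, 106 of 225, was 102 within 1 kb and 111 within 5 kb, but 66 for peaks in the upper part of each list and 49 with lists of equal size, by construction with fewer peaks. The H3K27me3 count of 0 became 1 within 5 kb (KDM6B, column, 11 cycles), and 0 again without that list.

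For antibody, 260 windows called became 66 with windows in at least 8 lists, 3 without SDS at 11 cycles, 13 without SDS at 13 cycles, 12 without columns at 11 cycles and 15 without columns at 13 cycles, fits with fewer lists. Ranking by maximum signal called 1 gene, HDAC2. For 13 minus 11 cycles, 10 windows became 2 with windows in at least 1 list, 18 in at least 8, and 6, 1, 4 and 1 without ab177178, ab4729, Active Motif and Diagenode. The interaction called 3 windows without ab177178. With equal lists the TSA differences of KDM6B and HDAC1 were -6.67 and -1.39, against -43.2 and -28.0. No setting called any of the genes for extraction, cycles, their interaction or TSA.

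The sign changes were all at genes not called, and their cause was not tested. For column minus SDS, ranking by maximum signal gave EZH2 -0.82, EP300 -8.12, HDAC1 8.63 and HDAC2 6.22, and log2(total signal + 1) gave EP300 -1.13 and HDAC3 0.19. Leaving out ab177178 gave EZH2 -6.09, EED 21.8 and HDAC3 5.26, leaving out Active Motif gave EZH2 -8.72 and HDAC2 2.56, and leaving out ab4729 gave HDAC1 8.54. For 13 minus 11 cycles, leaving out Diagenode gave EZH2 2.17 and HDAC2 -7.42. For the interaction, maximum signal gave EZH2 8.62, log2 signal gave HDAC3 0.053, leaving out Diagenode gave EZH2 10.5 and HDAC2 0.36, and leaving out Active Motif gave HDAC3 37.6. For TSA, log2 signal gave EZH2 0.81 and HDAC3 -1.32, maximum signal gave HDAC3 -3.24, and leaving out a pair gave EZH2 0.62 (Diagenode 1/100) and HDAC3 -2.95 (ab4729).

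The read depth is not known and 1 library stands for each condition, so neither the absence of a peak nor a difference between single lists has a measured error. The labels give no replicate numbers, and the TSA fit was paired by antibody and dilution.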
